A study of Mus musculus with 6 samples.

Results

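The naive pluripotency transcription factors examined here were Esrrb, Klf2, Klf4, Klf5, Tbx3, Tfcp2l1, Nr0b1, Zfp42, Prdm14 and Nr5a2. They were picked by gene symbol, and all 10 were found among the 28584 symbols of the table and passed the filter on low values. RNA-seq was done on mouse ESCs (mESCs) of a single line from C57BL/6X129S6 embryos. Before the comparison began, all cells had spent 5 passages with LIF and serum on a layer of growth-arrested fibroblasts (feeder cells). The cells were then kept for 10 passages in 1 of 3 media, with 2 libraries per group. LIF-ESCs received 1000 U/mL LIF, OSM-ESCs received OSM in place of LIF, at 10 ng/mL by the study's text, and -LIF-ESCs received neither cytokine. All 3 groups shared the serum-based basic medium, and below they are also called with LIF, with OSM and without cytokine. The study's text calls the libraries of a group biological replicates but does not say what made them separate, so the p-values measure only the spread between these libraries. How many feeder cells each culture still held is not given in the sources used here.

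Naive mESCs resemble the epiblast before implantation, and LIF keeps them in that state in serum. LIF and OSM both signal through gp130, which activates Jak kinases and Stat3. Stat3 and other inputs, such as Wnt signalling, sustain a set of mutually reinforcing transcription factors around Pou5f1 (Oct4) and Sox2. The 10 genes include Krüppel-like zinc finger factors (Klf2, Klf4, Klf5), nuclear receptors (Esrrb, Nr5a2, Nr0b1), a T-box factor (Tbx3), a factor of the grainyhead and CP2 family (Tfcp2l1), a zinc finger protein also called Rex1 (Zfp42) and a PR domain protein (Prdm14). Most are lost when mESCs leave the naive state.

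TPM is a length-normalised measure with the same total in every library, so levels can be set side by side between genes. Reads recovered from the TPM values summed to between 20712939 and 28994417 per library. Among markers of embryonic stem cells, 9 of 9 were detected in every group, and their summed TPM was 5220 to 5228 without cytokine, 6827 to 6854 with LIF and 6467 to 6499.8 with OSM. Markers of fibroblasts, the feeder cell type, were present in all groups and differed between them. The 26 fibroblast markers summed to 806 and 838 TPM without cytokine, 1580 and 1587 with LIF and 2202 and 2221 with OSM. Of these, Col6a3, Dcn, Prrx1 and Lox had means below 0.1 TPM without cytokine, and Lox was at a mean of 112 TPM with LIF and 152 with OSM. Tagln, Col5a1 and Mmp2 were lower with a cytokine, and Tagln, the largest part of the sum without cytokine, had means of 354 TPM without cytokine, 168 with LIF and 279 with OSM. Trophectoderm markers went the other way, with sums over 12 genes of 2401 and 2420 TPM without cytokine, 64.8 and 65.9 with LIF and 77.0 and 82.7 with OSM, most of it from the keratins Krt8, Krt18 and Krt19. Any part of cells that express these markers in the results below was not tested.

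**Figure D1:**
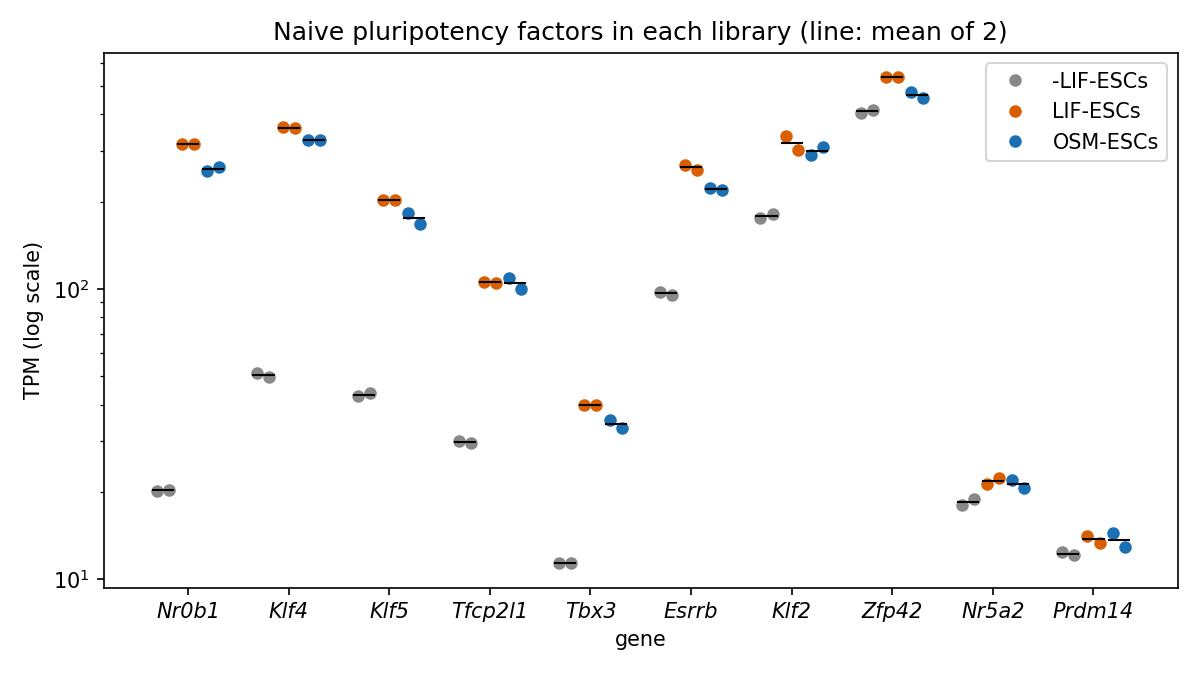
TPM (log scale) of the 10 genes in each of the 6 libraries, with a line at the mean of each group of 2, ordered by the change with LIF. Nr0b1, at the left, spans the widest range, from 20.1 to 316 TPM, while Prdm14 and Nr5a2, at the right, lie between 12.1 and 22.3 TPM in every library.

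Without cytokine all 10 genes were still detected, at means from 11.4 TPM (Tbx3) to 409 TPM (Zfp42). The order of their mean levels was Zfp42, Klf2, Esrrb, Klf4, Klf5, Tfcp2l1, Nr0b1, Nr5a2, Prdm14 and Tbx3. No neighbours in this order overlapped between the 2 libraries, although Prdm14 (12.1 and 12.4 TPM) and Tbx3 (11.3 and 11.4 TPM) were close. With LIF the order was Zfp42, Klf4, Klf2, Nr0b1, Esrrb, Klf5, Tfcp2l1, Tbx3, Nr5a2 and Prdm14. Of its neighbours, Klf2 (302 and 336 TPM) and Nr0b1 (315 and 316 TPM) overlapped. OSM-ESCs had the same order as LIF-ESCs, and no neighbours overlapped. The 10 genes together made up 866 and 875 TPM without cytokine, 2151 and 2201 with LIF and 1906 and 1936 with OSM. Zfp42 alone supplied 46.9% and 47.2% of that sum without cytokine, against 24.4% and 24.9% with LIF.

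The first question was which naive factors differed in level between LIF-ESCs and -LIF-ESCs. Calls required limma's adjusted p to be under 0.05 and the log2 fold change to reach 1, taken from log2(TPM + 1), a scale that understates changes of genes with a low TPM. With LIF 6 of the 10 genes were called higher than without cytokine, against 13.3% of the 18556 genes tested, and 0 were called lower, against 8.09%. The 6 genes were Nr0b1, Klf4, Klf5, Tfcp2l1, Tbx3 and Esrrb. Klf2, Zfp42 and Nr5a2 were higher at an adjusted p under 0.05 without reaching the limit on the fold change, which brought the count to 9 against 42.2% of all genes tested. Prdm14 did not pass. The libraries of the groups did not overlap for any of the 10 genes, all higher with LIF, and 50.9% of all genes tested were higher in this way. The median log2 fold change was 1.58 over the 10 genes and 0.17 over all genes tested. Because a shared rise of 0.17 moves small changes, the libraries were also rescaled by the median ratio, after which the median over all genes was 0.02 and that over the 10 genes was 1.41. In bulk RNA fewer cells that express a gene and less RNA per cell cannot be told apart.

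**Figure D2:**
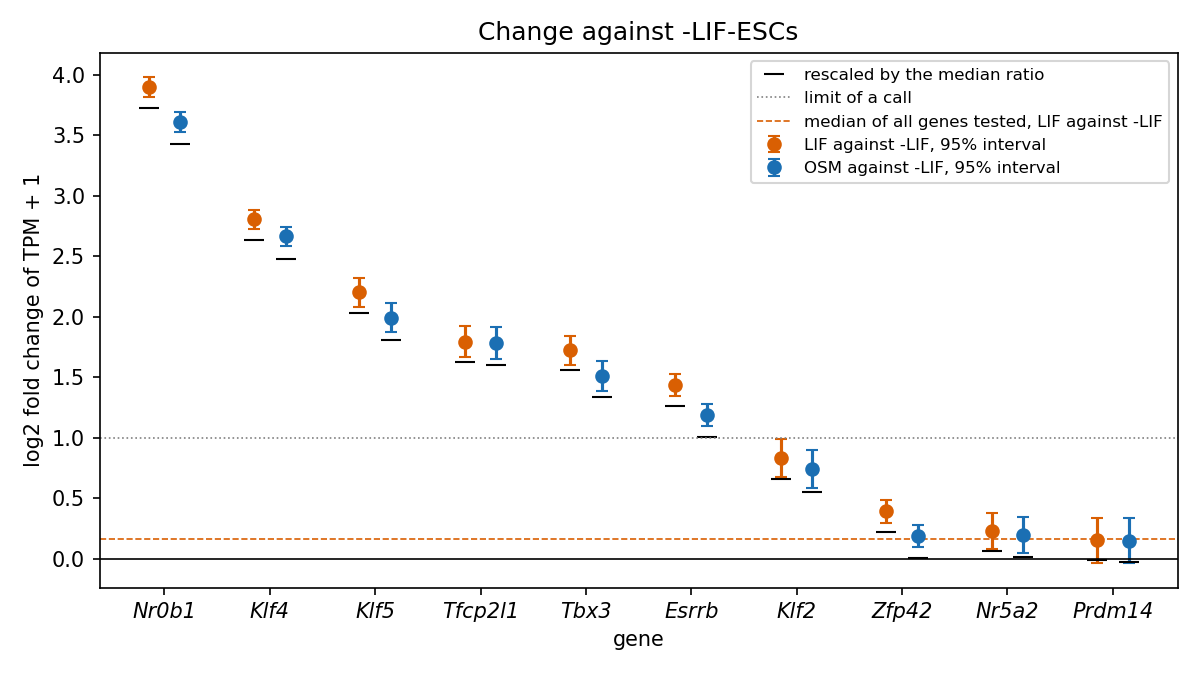
Log2 fold change, from log2(TPM + 1), of LIF-ESCs and of OSM-ESCs relative to -LIF-ESCs, with 95% intervals, 2 libraries per group. Black dashes are the values after rescaling by the median ratio, the dotted line is the limit of a call and the dashed line the median of all genes tested with LIF (0.17). Nr0b1, Klf4, Klf5, Tfcp2l1, Tbx3 and Esrrb lie above the dotted line in both comparisons, and Nr5a2 and Prdm14 lie close to the median of all genes. Zfp42 lies close to that median with OSM (0.19) and above it with LIF (0.39, 95% interval 0.30 to 0.48).

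Nr0b1 (Dax1), an orphan nuclear receptor without a conventional DNA-binding domain, changed the most. It lies on chrX:86191764-86195947 of GRCm38, on the plus strand. It was at 20.1 and 20.3 TPM in the -LIF-ESC libraries, 316 and 315 TPM with LIF and 255 and 263 TPM with OSM. The groups were thus far apart, with the -LIF-ESC mean at 6.41% of the LIF-ESC mean. On the log2 scale it was higher by 3.90 (standard error 0.03, adjusted p = 6.67e-07 in limma) with LIF and 3.62 (adjusted p = 9.19e-07) with OSM. The change with LIF ranked at the 99.7th percentile of all genes tested.

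Of the Krüppel-like factors, Klf4, a direct target of Stat3 and a reprogramming factor, changed more than its relatives Klf5 and Klf2. Klf4 (chr4:55527143-55532466, minus strand) was at 51.2 and 49.7 TPM without cytokine, 361 and 357 with LIF and 325 and 326 with OSM. Klf5 (chr14:99298691-99315036, plus strand) was at 42.6 and 43.8 TPM without cytokine, 202 and 203 with LIF and 182 and 168 with OSM. Klf2 (chr8:72319033-72321656, plus strand) was at 176 and 181 TPM without cytokine, 336 and 302 with LIF and 290 and 308 with OSM. Klf2 thus kept 56.0% of its LIF-ESC mean without cytokine, Klf5 kept 21.3% and Klf4 kept 14.0%. With LIF the log2 fold change was 2.81 (95% interval 2.73 to 2.89) for Klf4, 2.20 (2.08 to 2.32) for Klf5 and 0.83 (0.67 to 0.99) for Klf2, and the intervals do not overlap. The make-up of the trio therefore differed between groups, a comparison within each library that no scaling changes. Klf2 gave 65.2% and 65.9% of the summed TPM of the 3 genes without cytokine, and 37.3% and 35.0% with LIF. Klf4 gave 19.0% and 18.1% without cytokine, 40.2% and 41.5% with LIF and 40.7% in both OSM-ESC libraries.

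**Figure D3:**
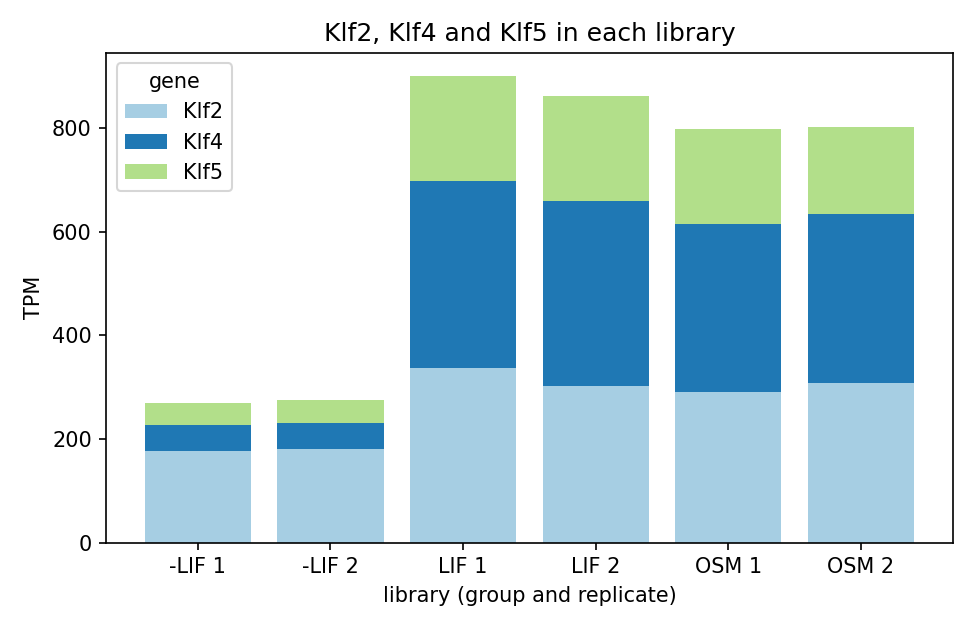
Stacked TPM of Klf2, Klf4 and Klf5 in each library. The sum is 270 and 275 TPM without cytokine, mostly Klf2, and 798 to 900 TPM in the libraries with a cytokine, where Klf4 takes the largest share.

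Outside the 3 members, 14 other Krüppel-like genes were in the table and 11 were tested. With LIF 7 of these were higher and 2 lower at an adjusted p under 0.05, and 4 were called higher (Klf3, Klf9, Klf11 and Klf12). Over all genes tested 42.2% were higher and 25.9% lower at that threshold, and 13.3% were called higher. Klf12, a repressor, had a log2 fold change of 2.38 from a mean of 1.46 TPM without cytokine. Klf9 was at a mean of 61.3 TPM without cytokine and 212 TPM with LIF, a log2 fold change of 1.77. Klf6 and Klf7 were lower, at -0.34 and -0.80. The median over the 11 genes was 0.32.

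Esrrb, an orphan nuclear receptor that Tcf7l1 represses and Wnt signalling releases, was at 98.1 and 95.1 TPM without cytokine, 268 and 258 with LIF and 223 and 220 with OSM. Its gene lies on chr12:86361117-86521628, plus strand. Each group stood apart from the others without overlap, with OSM-ESCs between. On the log2 scale Esrrb was higher by 1.43 (standard error 0.04, adjusted p = 6.81e-06 in limma) with LIF and 1.19 (adjusted p = 9.98e-06) with OSM. After rescaling by the median ratio the value with OSM was 1.01, close to the limit of a call.

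Tfcp2l1, a further target of Stat3, was at 30.0 and 29.4 TPM without cytokine, 106 and 105 with LIF and 109 and 100 with OSM. The gene lies on chr1:118627945-118685168, plus strand. Here the libraries with LIF fell within the range of those with OSM. The log2 fold change was 1.80 with LIF and 1.78 with OSM (adjusted p = 9.08e-06 and 8.73e-06 in limma). A small nuclear RNA gene model, Gm23497, shares 130 bases of exon (1.38% of the exon length of Tfcp2l1) on the same strand, and reads in that stretch cannot be assigned to either gene with certainty. Gm23497 was at 139 and 128 TPM without cytokine, 433 and 453 with LIF and 478 and 455 with OSM. Its part in the values of Tfcp2l1 was not tested.

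Tbx3, a T-box factor linked to PI3K signalling in mESCs, was at 11.3 and 11.4 TPM without cytokine, 39.8 in both LIF-ESC libraries and 35.3 and 33.2 with OSM. The gene lies on chr5:119670669-119684724, plus strand. Its log2 fold change was 1.72 with LIF and 1.51 with OSM (adjusted p = 8.92e-06 and 1.21e-05 in limma). The antisense gene Tbx3os1 overlaps 115 bases of its exons and was at 1.73 to 2.10 TPM without cytokine and 4.14 to 5.62 TPM in the other libraries. Whether the counting used strand is not given in the sources used here, so reads of the pair in that overlap cannot be told apart.

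Zfp42 (Rex1), widely used as a reporter of the naive state, had the highest level of the 10 genes in every library and one of the smallest changes. It lies on chr8:43295063-43306980, minus strand, and was at 406 and 413 TPM without cytokine, 537 and 536 with LIF and 479 and 453 with OSM. The -LIF-ESC mean was 76.3% of the LIF-ESC mean, and it ranked at the 98.3rd percentile of all genes tested in that group. The log2 fold change was 0.39 (95% interval 0.30 to 0.48, adjusted p = 0.000378 in limma) with LIF and 0.19 (0.10 to 0.28, adjusted p = 0.00614) with OSM. After rescaling by the median ratio these values were 0.22 (adjusted p = 0.00147) and 0.00 (adjusted p = 0.976), so the difference between OSM-ESCs and -LIF-ESCs did not hold. The processed pseudogene Zfp42-ps1 carried 1057 to 1532 reads per library against 7224 to 10346 for Zfp42, with log2 fold changes of 0.32 and 0.23. How reads that match both were counted is not given in the sources used here, and the level of Zfp42 is uncertain to that extent.

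Nr5a2 and Prdm14 had means between 12.3 and 21.8 TPM in all groups. Nr5a2 (Lrh-1), a nuclear receptor able to activate Pou5f1, was at 18.0 and 18.9 TPM without cytokine, 21.3 and 22.3 with LIF and 22.0 and 20.6 with OSM. Its gene lies on chr1:136842571-136960448, minus strand. The log2 fold change was 0.23 (adjusted p = 0.0176 in limma) with LIF and 0.20 (adjusted p = 0.0292) with OSM, and after rescaling 0.06 (adjusted p = 0.337) and 0.02 (adjusted p = 0.784). Without -LIF replicate 1 the adjusted p was 0.0827 with LIF and 0.125 with OSM, and without LIF replicate 2 it was 0.0895 with LIF. With OSM it was 0.0512 without -LIF replicate 2, 0.117 without OSM replicate 1 and 0.0548 with a replicate block.

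Prdm14, which represses FGF signalling and de novo DNA methylation in mESCs, was at 12.4 and 12.1 TPM without cytokine, 14.1 and 13.3 with LIF and 14.5 and 12.9 with OSM. The gene lies on chr1:13113457-13127163, minus strand. Its libraries rested on 289 to 402 reads each, and counting alone gave its log2 ratio an error of 0.08, about the size of the model's standard error of 0.07. The log2 fold change was 0.15 in both comparisons, with intervals of -0.03 to 0.34 with LIF and -0.04 to 0.33 with OSM (adjusted p = 0.122 and 0.129 in limma). It turned to -0.01 and -0.03 after rescaling. A difference of the size that the 6 called genes had lies outside these intervals.

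Proximal promoters were available for 7 of the 10 genes (Esrrb, Klf2, Klf4, Nr0b1, Nr5a2, Tfcp2l1 and Zfp42). They were taken from RefSeq on GRCm38.p6 as windows of 300 bases, 250 before and 50 after each gene start. The windows were searched on both strands for TTCNNNGAA (a STAT site), TCAAGGTCA (Esrrb and Nr5a2), GGGNGTGG (Klf), ATGCAAAT (the octamer) and AGGTGTGA (T-box). Of all 32851 windows, 8.3% held the STAT letters, 0.423% TCAAGGTCA, 17.6% the Klf letters, 1.74% the octamer and 1.28% the T-box letters. Among the 9 windows of the 7 genes, 1 held the STAT letters, 3 the Klf letters and 1 the octamer, and 0 held TCAAGGTCA or AGGTGTGA. No cause can be read from a match, and a missing match says nothing beyond these letters in this window.

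The windows that follow are written 5′ to 3′ on the strand of the gene, with matches in capitals. Esrrb is shown for its STAT match, Zfp42 for its octamer and Klf matches, Tfcp2l1 for a pair of Klf matches, and Nr0b1 as the gene that changed the most, without a match. They lie at chr12:86360867-86361166, chr8:43306960-43307259, chr1:118627695-118627994 and chrX:86191525-86191824.
Esrrb: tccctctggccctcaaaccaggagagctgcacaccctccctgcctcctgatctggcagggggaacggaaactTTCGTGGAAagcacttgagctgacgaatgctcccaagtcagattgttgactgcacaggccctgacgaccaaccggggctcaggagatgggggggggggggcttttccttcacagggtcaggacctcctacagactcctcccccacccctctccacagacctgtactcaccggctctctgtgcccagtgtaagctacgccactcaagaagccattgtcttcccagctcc
Zfp42: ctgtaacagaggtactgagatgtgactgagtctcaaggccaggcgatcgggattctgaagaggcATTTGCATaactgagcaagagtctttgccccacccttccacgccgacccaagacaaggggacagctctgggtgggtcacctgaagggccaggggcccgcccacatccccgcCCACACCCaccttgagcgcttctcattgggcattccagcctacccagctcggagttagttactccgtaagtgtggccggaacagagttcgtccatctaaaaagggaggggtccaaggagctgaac
Tfcp2l1: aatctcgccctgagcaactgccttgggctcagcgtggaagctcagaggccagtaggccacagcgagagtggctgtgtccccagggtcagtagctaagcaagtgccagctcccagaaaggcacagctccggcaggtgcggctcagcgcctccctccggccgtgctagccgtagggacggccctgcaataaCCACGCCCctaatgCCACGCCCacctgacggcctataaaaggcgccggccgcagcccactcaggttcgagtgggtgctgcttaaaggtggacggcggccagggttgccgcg
Nr0b1: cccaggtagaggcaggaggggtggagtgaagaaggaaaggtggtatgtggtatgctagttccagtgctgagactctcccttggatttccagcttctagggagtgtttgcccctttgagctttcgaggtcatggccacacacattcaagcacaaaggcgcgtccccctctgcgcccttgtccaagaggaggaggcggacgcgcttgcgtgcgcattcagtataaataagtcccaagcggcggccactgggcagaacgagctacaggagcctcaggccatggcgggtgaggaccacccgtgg
Counted from the gene start, the capitals begin at -178 in Esrrb, at -186 (octamer) and -75 (Klf) in Zfp42 and at -61 and -47 in Tfcp2l1. The third window with the Klf letters was the second window of Nr5a2, with the match at -157. Of the genes with a match, Esrrb and Tfcp2l1 were among the 6 called, and Zfp42 and Nr5a2 were not.

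The second question was whether the same factors were higher with OSM than without cytokine. With OSM 6 of the 10 genes were called higher than without cytokine, against 14.2% of all genes tested, and 0 lower, against 7.86%. The called genes were the 6 genes called with LIF. At an adjusted p under 0.05 alone 9 were higher, against 42.9% of all genes tested, and 7 after rescaling by the median ratio. All 10 had libraries above those of -LIF-ESCs without overlap, against 51.5% of all genes tested. The comparisons share the -LIF-ESC libraries. The median log2 fold change over the 10 genes was 1.35, against 0.18 over all genes tested. Set against the LIF-ESC mean, the OSM-ESC mean was 82.1% for Nr0b1, 84.4% for Esrrb, 86.0% for Tbx3, 86.5% for Klf5, 86.9% for Zfp42, 90.6% for Klf4 and 93.8% for Klf2. It was 97.8% for Nr5a2, 99.2% for Tfcp2l1 and 99.8% for Prdm14.

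OSM-ESCs and LIF-ESCs were then compared directly. Nr0b1 was lower with OSM, with a log2 fold change of -0.28 (95% interval -0.37 to -0.20, adjusted p = 0.0463 in limma). It was the only member at an adjusted p under 0.05, where 0.129% of all genes tested were lower and 0.463% higher. An unadjusted p under 0.05 was reached by 6 members, all lower with OSM, against 5.5% of all genes tested that were lower and 9.8% that were higher. The same 6 genes had libraries without overlap, against 20.9% of all genes tested that were lower in this way and 26.3% that were higher. Besides Nr0b1 they were Esrrb (-0.24, adjusted p = 0.0684), Zfp42 (-0.20, adjusted p = 0.0997), Klf4 (-0.14, adjusted p = 0.142), Klf5 (-0.21, adjusted p = 0.153) and Tbx3 (-0.21, adjusted p = 0.154). Summed fibroblast marker TPM was higher with OSM over the same libraries (2202 and 2221 against 1580 and 1587), and its part was not tested.

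**Figure D4:**
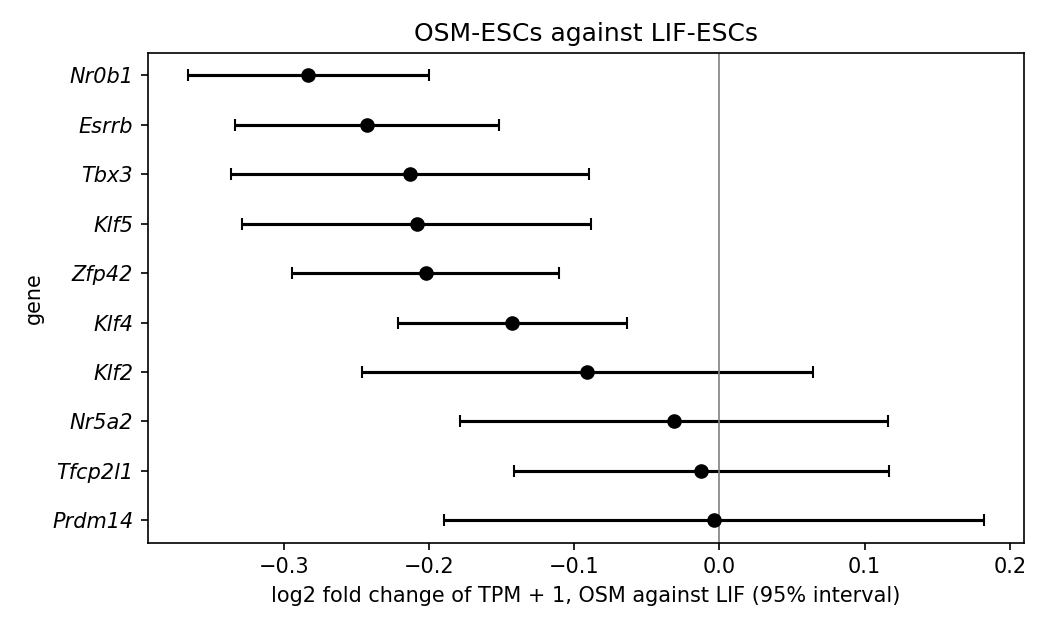
Log2 fold change, from log2(TPM + 1), of OSM-ESCs relative to LIF-ESCs for the 10 genes, with 95% intervals from limma, 2 libraries per group. The intervals of Nr0b1, Esrrb, Tbx3, Klf5, Zfp42 and Klf4 lie below 0, and those of Klf2, Nr5a2, Tfcp2l1 and Prdm14 include 0.

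The adjusted p of Nr0b1 was close to the threshold and passed it in few settings. Leaving out any 1 of the 6 libraries, with the lone library of a group assumed to vary like the rest, gave adjusted p-values of 0.102 to 0.272 and a log2 fold change of -0.31 to -0.26. In contrast, limma's voom on the recovered reads put 6 members at an adjusted p under 0.05, again all lower with OSM. For the other 4 genes the intervals bound the difference. They ran from -0.25 to 0.06 for Klf2, from -0.18 to 0.12 for Nr5a2, from -0.14 to 0.12 for Tfcp2l1 and from -0.19 to 0.18 for Prdm14. Tfcp2l1 also stood apart from Esrrb within libraries, a ratio that scaling does not change. Tfcp2l1 TPM per Esrrb TPM was 0.306 and 0.309 without cytokine, 0.395 and 0.409 with LIF and 0.490 and 0.454 with OSM, without overlap between groups. The ratio was not tested, and how many other gene pairs separate in this way was not counted.

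Profiles over the 6 libraries were compared by the Euclidean distance of log2(TPM + 1) values centred on each gene's mean, as a description. Among the 10 genes, Prdm14 and Nr5a2 were closest (0.15), followed by Zfp42 and Nr5a2 (0.20) and by Tbx3 and Tfcp2l1 (0.29). Nr0b1 and Prdm14 were farthest apart (4.18). The nearest genes were sought among those tested with a mean of at least 5 TPM, leaving out gene models (Gm and Rik symbols). Values were not scaled, so the size of a change enters the distance. The nearest to Zfp42 were Atg14 (0.0221) and Tmem135 (0.0628), to Nr5a2 Twsg1 (0.0309) and Rpusd4 (0.0363), and to Prdm14 Rrs1 (0.0405) and Faim (0.0438). Those nearest to Tfcp2l1 were Arrdc3 (0.0647) and Nars (0.0654), to Klf2 St3gal3 (0.0809) and Tbc1d2 (0.0828), and to Tbx3 Chchd10 (0.0853) and Klf9 (0.0945). For Klf4 they were Dpp7 (0.0941) and Pck2 (0.121), for Klf5 AU018091 (0.106) and Zfp992 (0.138), and for Esrrb Piwil2 (0.110) and Dgkh (0.114). Nr0b1 had no gene as close among those searched, the nearest being Cth (0.276) and Laptm5 (0.279).

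With LIF the core factors did not all change in 1 direction. Those called higher were Sall4 and Pou5f1, 2 in all, against 13.3% of all genes tested. Of 8 core pluripotency genes, 6 were higher and 1 lower with LIF at an adjusted p under 0.05, against 42.2% and 25.9% of all genes tested, and the median change on the log2 scale was 0.63. The values were 1.09 for Pou5f1, 1.34 for Sall4, 0.86 for Lin28a, 0.71 for Sox2, 0.55 for Utf1 and 0.55 for Trim28. Dppa5a, at 0.06, did not pass the test. Nanog was lower with LIF, at -0.58, with a mean of 433 TPM without cytokine and 290 TPM with LIF. With OSM 6 were higher and 1 lower, against 42.9% and 25.4% of all genes tested, with a median of 0.52.

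Of 24 other genes linked to the naive state, 21 were higher and 2 lower with LIF at an adjusted p under 0.05, again against 42.2% and 25.9% of all genes tested, and their median was 1.15. The largest log2 fold changes were those of the homeobox gene Gbx2 (3.46) and of Spp1 (3.41), which codes for osteopontin. The lowest were those of Dppa3 (-1.41) and Tex19.1 (-0.58), both of which were lower with LIF. Comparing the cytokines, 8 of these genes had an unadjusted p under 0.05, all lower with OSM, and 1 an adjusted p under 0.05, the Akt coactivator Tcl1 (-0.43, adjusted p = 0.0463). That call was lost with a replicate block, with the compared groups alone and without any 1 library other than OSM replicate 2, since 0 of all genes passed in those settings.

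The cytokine arm was a list of pathway genes that also held feedback and target genes such as Socs3. At an adjusted p under 0.05, 15 of 16 genes tested were higher with LIF and 15 with OSM, and 1 was lower in each. Over all genes tested 42.2% were higher and 25.9% lower with LIF, and 42.9% and 25.4% with OSM. The medians of the list were 0.99 and 0.89, against 0.17 and 0.18 over all genes tested. The OSM receptor gene Osmr had the largest log2 fold change with LIF (2.65), and Jak2 (-0.47) and Junb (0.20) had the lowest. After rescaling by the median ratio Junb was at 0.03 with LIF and 0.01 with OSM. Stat3 itself was at a mean of 21.4 TPM without cytokine, 42.8 with LIF and 44.5 with OSM. The feedback inhibitor Socs3 was lower with OSM than with LIF (-0.57, adjusted p = 0.03 in limma). This call was also lost in each setting named above for the loss of the Tcl1 call.

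In the Wnt arm, 4 of 11 genes tested were higher and 4 lower with LIF at an adjusted p under 0.05, shares not far from the 42.2% and 25.9% of all genes tested. The median was 0.01, and -0.16 after rescaling. Cdx1 (1.67) and Tcf7l1 (1.14), the repressor of Esrrb named above, were highest, and Sp5 (-2.13) and Tcf7 (-2.12) lowest. Of 13 partner genes tested, 10 were higher and 1 lower, led by the DNA demethylation enzymes Tet2 (2.82) and Tet1 (2.35), with Suz12 (-0.39) and Ring1 (0.01, not past the test) lowest. The partner of Prdm14, Cbfa2t2, had a log2 fold change of 1.10, from a mean of 15.6 TPM to 34.5 TPM. Of 25 relatives of the members tested, which include the Krüppel-like genes above, 16 were higher and 3 lower, against the same 42.2% and 25.9%, with Klf12 (2.38) and Klf9 highest and Grhl3 (-0.96) and Klf7 lowest. Their median was 0.44, against 0.17 over all genes tested.

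Genes of formative and primed epiblast mostly went against the naive factors, with 11 of 16 lower and 5 higher with LIF at an adjusted p under 0.05, against 25.9% lower and 42.2% higher over all genes tested, shares that also serve for the lineage markers that follow. Fgf8 (-5.73) and T (-5.13) were lowest and Foxd3 (1.96) and Tcf15 (1.18) highest. Other lineages were mixed. Trophectoderm markers were lower in 11 of 12 genes, from Krt19 (-7.66) and Krt8 (-6.16) to Tfap2c (-0.55) and Gata2 (-0.20, not past the test). Mesoderm markers were lower in 6 of 8 and higher in 1, with T and Hand1 (-4.34) lowest and Hand2 (1.27) and Tbx6 (-0.27, not past the test) highest. Primitive endoderm markers were higher in 8 of 8 tested, from Lamb1 (0.15) and Dab2 (0.35) to Sox7 (2.26) and Lama1 (2.81), and Lamb1 was at -0.02 after rescaling. Neurectoderm markers were higher in 4 of 5 and lower in 1, with Olig2 (4.31) and Sox1 (1.68) highest and Nes (-1.26) and Tubb3 (0.78) lowest. Fibroblast markers were higher in 23 of 26 and lower in 3, with Lox (6.71) and Fbln2 (5.39) highest and Tagln (-1.07) and Col5a1 (-0.82) lowest.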

How the data were processed

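RNA-seq of mESCs was analysed in 6 libraries, 2 per group. Per the study's methods and the labels, the authors trimmed reads with Trimmomatic, aligned them to mm10 with HISAT2, assigned them to genes with featureCounts and deposited the result as TPM. The annotation, strand setting and treatment of reads with several matches are not given in the sources used here. TPM sums to between 999949.5 and 999966 per library.

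Reads were recovered as whole multiples of a step per library and exon length in GENCODE M21 (GRCm38), where 28404 symbols (99.37%) were found once. Within 0.02 of a read, 94.5% to 94.7% of the values above 0 were whole. Reads gave depth, counting error, which covers counting alone, and limma's voom.

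The log2(TPM + 1) values were fitted in limma 3.58.1 (R 4.3.3, eBayes with a trend) on the 18556 genes that reached 1 TPM in 2 or more libraries, all 3 groups together, with 3 residual degrees of freedom. P-values were adjusted over all genes tested by the Benjamini-Hochberg method. Calls needed an adjusted p below 0.05 with a log2 fold change of 1 or more. With 2 libraries against 2, the smallest two-sided p of an exact permutation test is 0.333. Alternatives were a pseudocount of 0.1, no filter, a filter of 5 TPM, a replicate block, no trend, median-ratio rescaling, no limit on the fold change, voom, a fit to only the compared groups, and each library left out. Steps were tested on simulated data.

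The members and the lists were chosen with earlier results of these data known. Lists came from general knowledge. The text names all members, genes whose exons overlap them, the pseudogene of Zfp42 and the 2 nearest profiles of each member. It also names core genes and the 2 highest and 2 lowest log2 fold changes of each list with LIF against -LIF-ESCs. Klf3, Klf6, Klf9, Klf11, Stat3, Cbfa2t2, Tcl1, Socs3, Col6a3, Dcn, Prrx1, Mmp2 and Krt18 were named after their values were seen. The result of 1 gene that the rule names is not reported here. Figures were drawn with matplotlib 3.10.9 in Python 3.11.15.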

Additional observations from a re-analysis of the deposited data

Results flagged for a closer look

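Nr0b1 was lower with OSM than with LIF, with a log2 fold change of -0.28 from log2(TPM + 1) (adjusted p = 0.0463 in limma). Both OSM-ESC libraries (255 and 263 TPM) lay below both LIF-ESC libraries (316 and 315 TPM). The gene drew attention because the comparison of OSM-ESCs with LIF-ESCs passed its own test. The call did not hold with a replicate block (adjusted p = 0.148) or with the compared groups alone (0.117). It was also lost with a pseudocount of 0.1 (0.0557), without a filter (0.0567), without a trend (0.13) and after rescaling (0.057). With any 1 library left out the log2 fold change ran from -0.31 to -0.26. Summed fibroblast marker TPM was higher with OSM, and its part was not tested.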

How the results depend on the processing

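Against -LIF-ESCs, the count of members called higher was 6 in every setting with the limit on the fold change, and 9 without it, and the count called lower was 0 in every setting run. Against LIF-ESCs, the count lower with OSM at an adjusted p under 0.05 was 1 as reported, and 1 with a filter of 5 TPM. It was 0 with a pseudocount of 0.1, without a filter, without a trend, with only the groups compared, with a replicate block and after rescaling by the median ratio, from 0 to 0 with any 1 library left out, and 6 with voom on recovered reads. The cause was not tested. In that comparison 86 genes were higher and 24 lower at that threshold as reported, 52 and 10 with the pseudocount of 0.1, 149 and 38 with the filter of 5 TPM, 8 and 4 without a trend, 971 and 475 with voom, and 0 with the replicate block or with the compared groups alone. Between libraries of the same replicate number, the deviations from the group means correlated over genes at -0.04, -0.02 and 0.03. These values show no large shared deviation, but they cannot tell whether the cultures were paired, which the labels do not give. The sign turned for Prdm14 after rescaling (-0.01 with LIF and -0.0262 with OSM, each against -LIF-ESCs). For OSM-ESCs against LIF-ESCs it turned for Prdm14 without LIF replicate 1 (0.0363). Leaving out OSM replicate 1 or 2 gave -0.08 and 0.0723 for Prdm14, -0.0759 and 0.0509 for Tfcp2l1, and -0.074 and 0.0115 for Nr5a2. None of these values passed a test. With voom, Zfp42 and Nr5a2 with OSM against -LIF-ESCs had adjusted p-values of 0.12 and 0.268. Nr5a2 with LIF against -LIF-ESCs had an adjusted p of 0.118 with voom. Over all genes, rescaling moved the calls with LIF against -LIF-ESCs from 2470 higher and 1502 lower to 1946 and 1896, and those of OSM-ESCs from 2630 and 1459 to 2063 and 1895.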

Other observations

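Relative to Pou5f1 in the same library, a ratio that no scaling changes, Zfp42 was higher without cytokine. Zfp42 TPM per Pou5f1 TPM was 0.752 and 0.749 without cytokine, 0.454 and 0.467 with LIF and 0.406 and 0.381 with OSM, without overlap between groups. For Esrrb the ratio was 0.182 and 0.173 without cytokine, 0.226 and 0.224 with LIF and 0.189 and 0.185 with OSM. These ratios were chosen after the data were seen and were not tested.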
